A study of Diplotaxodon limnothrissa and Petrotilapia genalutea and Rhamphochromis longiceps with 60 samples.

Results

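The insulin-like growth factors (IGFs), their receptor and the proteins that bind them were followed in livers and muscles of 4 cichlid species of Lake Malawi. Members were taken by gene symbol: igf1, igf2, igf1r and igfbp1 to igfbp7, each with or without the letter a or b that marks a duplicate in fish. Of the 29676 genes listed for each tissue, 6 matched: the ligands igf1 and igf2, the receptor igf1r, and the binding proteins igfbp2, igfbp4 and igfbp7. Genes under the symbols igfbp1, igfbp3, igfbp5 and igfbp6 were not analysed here, nor were any genes of the family that carry only a locus number.

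The study asked how methylation and transcription diverged between cichlid species that differ in habitat and diet. Total RNA was sequenced from wild-caught adult males of Diplotaxodon limnothrissa (DL, deep-water pelagic), Rhamphochromis longiceps (RL, pelagic and piscivorous), Maylandia zebra (MZ) and Petrotilapia genalutea (PG), the last pair being rock-dwelling algae eaters. No fish was treated, ages in years are not given, and 1 MZ fish is listed as morph BB. The tables hold 3 livers each of DL, MZ and PG, 2 livers of RL (fish 2 and 3), and 3 muscles of each species. Liver and muscle with the same number come from the same fish. The fish were bought dead from fishermen, each species at its own site and date and DL from a trawl, so species cannot be told apart from site, date, catch or time since death.

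In vertebrates the liver secretes most of the circulating IGF1, under the control of growth hormone, and IGF1 and IGF2 both signal through the IGF1 receptor. Binding proteins carry the ligands in blood and tissue, lengthen their life or keep them from the receptor, and the acid-labile subunit (igfals) completes the large circulating complex in mammals. In muscle, IGFs made locally act on growth and repair of fibres.

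Levels are given as TPM, transcripts scaled for gene length and to the same total in every library, so that levels of different genes can be set side by side. Read counts cannot be had from TPM, so nothing is known of the depth behind a low value, and a value of 0 means only that the table lists 0. Markers of hepatocytes (7 of 25 symbols listed, fgb, serpinc1 and tf among them) summed to 10459 to 33711 TPM in livers and 4.84 to 22.1 TPM in muscles. Markers of muscle fibres (4 of 35 listed: actn3, cacna1s, myl1 and neb) summed to 6472 to 31285 TPM in muscles and 1.83 to 127 TPM in livers. The 10 most abundant genes took 22.6% to 51.4% of TPM in livers, most in MZ fish 1, and 27.8% to 39.8% in muscles. In bulk tissue, fewer cells of a type and less RNA per cell cannot be told apart.

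Differences between species were tested with limma on log2(TPM + 1), over all genes with at least 1 TPM in 2 libraries, and called at a Benjamini-Hochberg adjusted p under 0.01. On this scale, differences of genes near 0 TPM come out too small. TPM are shares of a library. For causes that were not tested, the median gene also differed between groups. That median was 0.40 for DL minus MZ, 0.14 for DL minus PG, 0.25 for DL minus RL, -0.17 for MZ minus PG, -0.15 for MZ minus RL and 0.10 for PG minus RL in liver. In muscle it was 0.21 for DL minus PG, 0.17 for DL minus RL, 0.12 for MZ minus PG and under 0.1 in size for the other pairs. Of the 6 members, igfbp2 was too low to be tested in either tissue, and the other 5 were tested in both.

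Liver igf1 was above every other member in each of the 11 libraries, most narrowly in PG fish 1 (30.2 TPM, with igfbp4 at 23.05 TPM). By median, igfbp4 and igf2 came next, though in PG fish 2 igfbp7 (2.47 TPM) lay above igf2 (2.13 TPM). Across the 11 livers igf1 ranged from 25.6 to 267 TPM (median 72.4), igfbp4 from 5.78 to 23.05 TPM (median 11.9) and igf2 from 2.13 to 29.2 TPM (median 10.04). Liver igfbp7 lay between 1.398 and 3.78 TPM, and igf1r between 0.353 and 1.84 TPM. In muscle the order differed: igf1r (2.77 to 19.1 TPM), igf2 (3.37 to 70.7 TPM), igfbp4 (2.45 to 25.5 TPM) and igfbp7 (2.68 to 13.3 TPM) had overlapping ranges, and igf1 was between 0 and 2.95 TPM. As mRNA, igf1 was thus the more abundant ligand in liver, where it gave 87.8% to 92.3% of the igf1 and igf2 TPM of a library. In muscle it was igf2, and igf1 gave 0% to 20.3%.

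**Figure D1:**
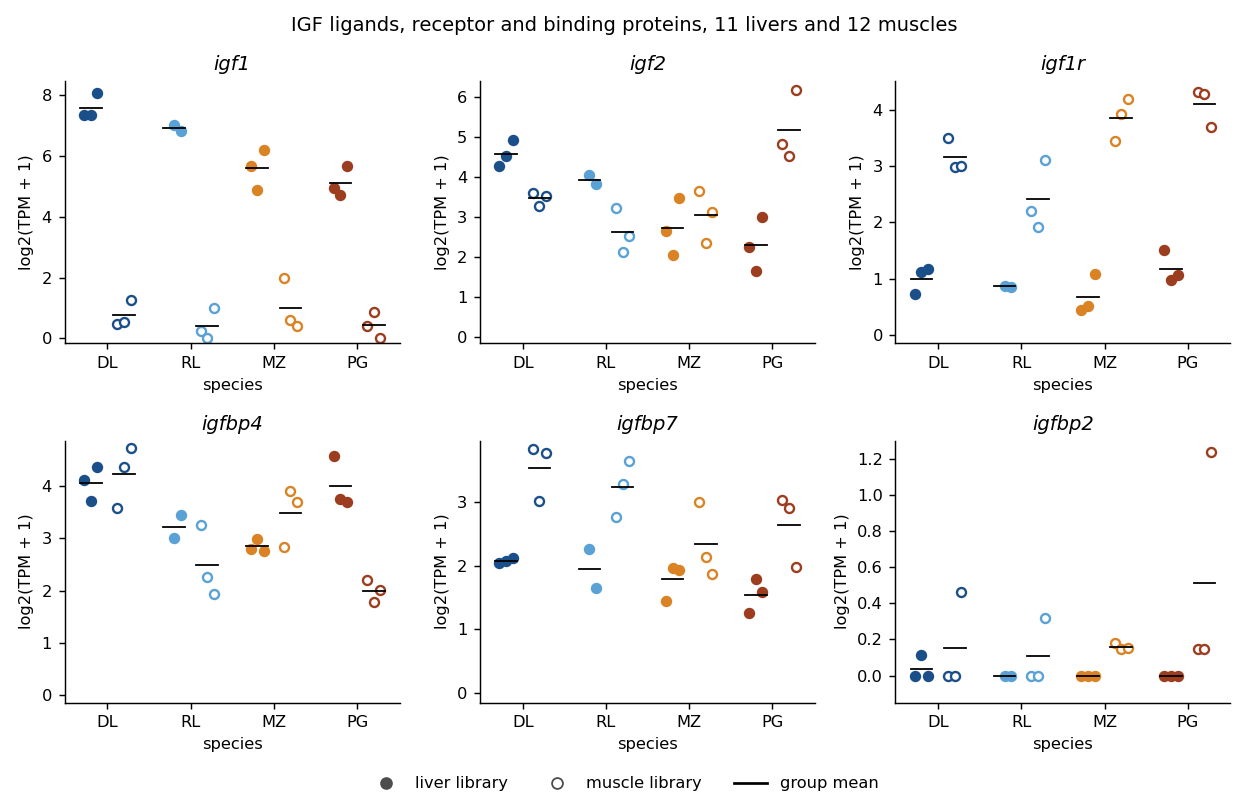
Levels of the 6 members as log2(TPM + 1) in each of the 11 liver (filled) and 12 muscle (open) libraries, by species, with a line at the mean of each group. Liver igf1 and igf2 of DL and RL lie above those of MZ and PG. In muscle every PG library lies above the other species in igf2, and PG has the lowest mean of igfbp4, where RL overlaps it.

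Liver igf1, the main endocrine growth factor, had higher levels in each liver of the pelagic DL and RL than in any of the rock-dwelling MZ and PG, and of these 4 pairs of species DL against PG passed the test. DL fish 1, 2 and 3 had 164, 161 and 267 TPM, and RL fish 2 and 3 had 128 and 112 TPM. MZ fish 1, 2 and 3 had 50.4, 28.8 and 72.4 TPM, and PG fish 1, 2 and 3 had 30.2, 25.6 and 49.8 TPM. Every DL and RL liver was above every MZ and PG liver, and no DL liver overlapped RL. The mean of DL was 197 ± 60.2 TPM (SD, n = 3), that of RL 120 ± 11.5 TPM (SD, n = 2), that of MZ 50.5 ± 21.8 TPM (SD, n = 3) and that of PG 35.2 ± 12.9 TPM (SD, n = 3), which placed the gene above 94.96% to 98.4% of all genes listed in the 4 species.

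The difference in igf1 between DL and PG livers passed the test, at 5.61 times the mean TPM and a log2 fold change of 2.47 (SE 0.41, adjusted p = 0.00250), or 2.33 above the median gene. Between DL and MZ the means differed 3.91-fold, with a log2 fold change of 2.00 (SE 0.41), or 1.59 above the median gene. Its adjusted p of 0.0102 missed the threshold. With quantile normalization the log2 fold change fell to 1.44 (adjusted p = 0.0246). The adjusted p ranged from 0.00763 to 0.0246 over the settings tried with all libraries and reached 0.0447 with 1 library left out (MZ liver replicate 2). It was under 0.01 with a pseudocount of 0.5 (0.00995), among genes averaging at least 5 TPM (0.00837), with the replicate number as a block (0.00763) and without MZ liver replicate 3 (0.00974). Replicate numbers do not pair fish of different species. Between PG and RL the log2 fold change was -1.80 (SE 0.46, adjusted p = 0.0271), and this difference passed with quantile normalization (-2.22, adjusted p = 0.00597). Neighbours in the order DL, RL, MZ and PG were not told apart: 0.68 for DL minus RL (95% interval -0.34 to 1.69, adjusted p = 0.594), -1.32 for MZ minus RL (-2.33 to -0.31, adjusted p = 0.124) and 0.47 for MZ minus PG (-0.43 to 1.38, adjusted p = 0.566). The call for DL against PG was lost without DL replicate 3 (adjusted p = 0.0117), PG replicate 1 (0.0114) or PG replicate 2 (0.0140), with log2 fold changes of 2.23 to 2.74 over all libraries left out in turn.

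Liver igf2, the second ligand, followed igf1 at a lower level. It stood at 18.4, 21.9 and 29.2 TPM in DL fish 1, 2 and 3, at 15.4 and 13.04 TPM in RL fish 2 and 3, at 5.30, 3.12 and 10.04 TPM in MZ fish 1, 2 and 3, and at 3.72, 2.13 and 6.95 TPM in PG fish 1, 2 and 3. Again every DL and RL liver lay above every MZ and PG liver, while MZ and PG overlapped. DL exceeded PG 5.43-fold in mean TPM, a log2 fold change of 2.28 (SE 0.44, adjusted p = 0.00487) or 2.14 above the median gene. The difference from MZ, 1.85 (SE 0.44, adjusted p = 0.0179), did not pass. The call for DL against PG was lost without DL replicate 2 (adjusted p = 0.0149), DL replicate 3 (0.0210), PG replicate 1 (0.0184) or PG replicate 2 (0.0244), and with no filter on low genes (0.0115).

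Of the 5 members tested in liver, igf1 and igf2 were called in at least 1 pair of species, where 11.8% of all 16613 genes tested were called. Both calls came from DL against PG, in which 8.40% of genes were called. No member was called between DL and MZ (4.56% of genes called), DL and RL (0.795%), MZ and PG (1.37%), MZ and RL (1.87%) or PG and RL (4.05%). The same 2 members were those with every DL and RL liver above every MZ and PG liver, an arrangement found in 9.62% of the genes tested, and no member had the opposite arrangement, found in 2.42%.

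The sum of leukocyte markers in the same livers moved the other way. Its largest part in every liver was cd74, at 33.2 to 399 TPM, and the other markers reached at most 17.2 TPM. The 5 of 15 symbols listed, among them cd74 and ptprc, summed to 38.6 to 119 TPM in DL and 46.4 to 51.6 TPM in RL, against 165 to 447 TPM in MZ and 190 to 271 TPM in PG, with none of the 5 at 0 throughout a group. Hepatocyte markers did not separate the species in that way, at 23572 to 29533 TPM in DL, 10459 to 16449 TPM in RL, 13789 to 21816 TPM in MZ and 29664 to 33711 TPM in PG. Fibroblast markers (6 of 12 listed) summed to 7.48 to 8.71 TPM in DL, 9.89 to 13.1 TPM in RL, 3.32 to 20.3 TPM in MZ and 2.317 to 4.80 TPM in PG, with 1 of the 6 at 0 in every library of DL, of PG and of RL. The 1 marker of exocrine pancreas listed, of 18, was at 186 to 279 TPM in DL, 233 to 634 TPM in RL, 10.1 to 494 TPM in MZ and 35.2 to 146 TPM in PG. DL and RL were thus above PG in both, and MZ overlapped. The part of these markers in the igf1 and igf2 differences was not tested.

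The ratio of igf1 to igf2 stayed within 7.17 to 12.01 across the 11 livers while igf1 itself varied more than 10-fold. On the log2(TPM + 1) scale the pair correlated at r = 0.990 (Spearman's rho 0.982, n = 11), and at 0.990 without the 2 livers farthest from the median of igf1. The livers fall into 2 sets of species, so the relation was also taken within them: r was 0.971 over the 6 livers of MZ and PG, and 0.954 for deviations from the species means over all 11. Fish 3 of DL, MZ and PG had the most igf1 and the most igf2 of their species, while DL fish 1 had slightly more igf1 than DL fish 2 and less igf2. These points share library and tissue, and no test was made.

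**Figure D2:**
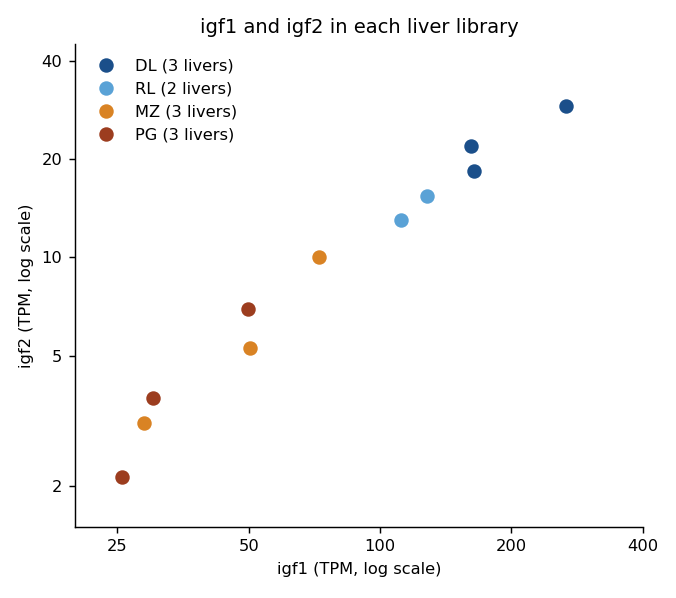
igf1 against igf2 in TPM, both on log axes, in each of the 11 liver libraries, coloured by species. The points run along 1 line from PG fish 2 (25.6 and 2.13 TPM) to DL fish 3 (267 and 29.2 TPM), with DL and RL at 112 TPM of igf1 or more and MZ and PG at 72.4 TPM or less.

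Among 3735 genes averaging at least 10 TPM in liver, igf2 was the gene with the pattern nearest to that of igf1 (r = 0.990), followed by cers3, a ceramide synthase (0.986), and amdhd1, an enzyme of histidine breakdown (0.965). For igf2 the nearest were igf1 (0.990), cers3 (0.974) and the locus LOC106674867 (0.967), which has no name in the tables. Levels of cers3 were 54.4 to 103 TPM in DL, 57.0 to 58.0 TPM in RL, 19.0 to 31.2 TPM in MZ and 13.8 to 27.2 TPM in PG. Other members were less alike: igf1 correlated at 0.621 with igfbp7, 0.183 with igfbp4 and 0.0753 with igf1r, and at -0.0152, -0.125 and 0.438 for deviations from species means.

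Liver igf1r, for the tyrosine kinase that both ligands activate, was low in every species. It was at 0.642, 1.17 and 1.24 TPM in DL, 0.834 and 0.806 TPM in RL, 0.353, 0.425 and 1.12 TPM in MZ and 1.84, 0.962 and 1.08 TPM in PG. Only 5 of 11 livers reached 1 TPM, and no pair of species passed the test, with adjusted p from 0.323 to 0.896. Receptor genes that carry only a locus number were not analysed, so these levels are of igf1r alone.

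The binding protein igfbp4, which in mammals mainly holds IGFs back from the receptor, did not follow the ligands in liver. It stood at 16.4, 12.2 and 19.6 TPM in DL and at 23.05, 12.5 and 11.9 TPM in PG. MZ had 5.91, 6.93 and 5.78 TPM, and RL had 7.05 and 9.87 TPM. DL and PG thus overlapped, and both MZ and RL lay below them. Yet DL minus MZ (1.22, SE 0.34, adjusted p = 0.0321) and MZ minus PG (-1.17, SE 0.34, adjusted p = 0.0668) did not pass. Nor did DL minus RL (0.84, adjusted p = 0.389) or PG minus RL (0.79, adjusted p = 0.181). With the scaling changed to quantile normalization, DL minus MZ was 0.75 and MZ minus PG was -0.66.

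The related protein igfbp7, which binds IGFs only weakly and lies in vessel walls and matrix, lay in a narrow range in liver. It was at 3.12 to 3.34 TPM in DL, 2.16 to 3.78 TPM in RL, 1.73 to 2.92 TPM in MZ and 1.398 to 2.47 TPM in PG. No pair passed the test, and the widest difference was 0.53 for DL minus PG (95% interval -0.08 to 1.14, adjusted p = 0.187). igfbp2, a binding protein that circulates in fish and mammals, was listed at 0 TPM in 10 of 11 livers and at 0.0819 TPM in DL fish 2.

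In muscle, igf2 was the more abundant ligand mRNA, and PG had the highest levels. PG fish 1, 2 and 3 had 27.1, 22.0 and 70.7 TPM, DL had 11.02, 8.69 and 10.5 TPM, MZ had 11.6, 4.11 and 7.62 TPM, and RL had 8.32, 3.37 and 4.69 TPM. Every PG muscle lay above every muscle of the other species, and PG fish 3 was far above the other 2. The share of all genes with PG apart in this way was not counted. The PG mean of 39.95 ± 26.8 TPM (SD, n = 3) was 7.31 times that of RL, a log2 fold change of 2.55 (SE 0.45, adjusted p = 0.00204) or 2.59 above the median gene. Against MZ it was 5.15 times as high (-2.13 for MZ minus PG, SE 0.45, adjusted p = 0.0222) and against DL 3.97 times (-1.71 for DL minus PG, SE 0.45, adjusted p = 0.0175), neither of which passed. The call against RL was lost without RL replicate 2 (adjusted p = 0.0102), and without PG replicate 3 the log2 fold change was 2.05 (adjusted p = 0.00691).

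Muscle igf1r had its highest means in PG and MZ. PG had 19.1, 18.5 and 12.02 TPM and MZ 9.91, 14.3 and 17.4 TPM, against 10.3, 6.92 and 7.08 TPM in DL and 3.64, 2.77 and 7.62 TPM in RL. PG and MZ overlapped, MZ overlapped DL, and neither PG nor MZ overlapped RL. PG exceeded RL 3.54-fold in mean TPM, a log2 fold change of 1.69 (SE 0.33, adjusted p = 0.00387) or 1.73 above the median gene. MZ minus RL was 1.45 (SE 0.33, adjusted p = 0.0139) and did not pass. The call for PG against RL was lost when only these species were fitted (adjusted p = 0.0159) and without PG replicate 1 (0.0132), PG replicate 2 (0.0148), RL replicate 1 (0.0155) or RL replicate 2 (0.0164).

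Muscle igfbp4 had its lowest mean in PG and its highest in DL. It was at 3.58, 2.45 and 3.003 TPM in PG, 8.54, 3.79 and 2.82 TPM in RL, 6.14, 14.1 and 12.002 TPM in MZ and 11.01, 19.7 and 25.5 TPM in DL. No DL or MZ muscle overlapped PG, while RL did. DL exceeded PG 6.23-fold in mean TPM, a log2 fold change of 2.23 (SE 0.40, adjusted p = 0.00269) or 2.03 above the median gene, and exceeded RL by 1.75 (SE 0.40, adjusted p = 0.0488), which did not pass. The call for DL against PG was lost without DL replicate 2 (adjusted p = 0.0109), DL replicate 3 (0.0144), PG replicate 2 (0.0104) or PG replicate 3 (0.0111).

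Muscle igfbp7 was at 13.3, 7.09 and 12.7 TPM in DL, 5.82, 8.73 and 11.5 TPM in RL, 7.06, 3.42 and 2.68 TPM in MZ and 7.22, 6.49 and 2.96 TPM in PG. Its widest difference, 1.20 for DL minus MZ (95% interval 0.36 to 2.04, adjusted p = 0.0675), did not pass. igfbp2 was above 1 TPM in a single library, PG fish 3, at 1.36 TPM, and at 0 to 0.379 TPM in the other muscles. That library also had the highest igf2 of all muscles. Muscle igf1 was at 0.403, 0.449 and 1.405 TPM in DL, 2.95, 0.528 and 0.340 TPM in MZ, 0.328, 0.826 and 0 TPM in PG and 0.183, 0 and 1.001 TPM in RL. The species overlapped, and no pair passed the test (adjusted p from 0.403 to 0.993).

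In muscle, igf2, igf1r and igfbp4 were called in at least 1 pair, 3 of the 5 members tested, where 17.7% of 18101 genes were called. igfbp4 came from DL against PG (10.6% of genes called), and igf2 and igf1r from PG against RL (11.8%). No member was called for DL against MZ (3.40%), DL against RL (0.486%), MZ against PG (1.13%) or MZ against RL (5.82%). No member separated both pelagic species from both rock-dwelling ones in every muscle: all DL and RL muscles were above all MZ and PG muscles in 5.58% of genes and below in 5.13%.

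The sum of the muscle fibre markers also differed between species. It was 6472 to 13947 TPM in PG, 7780 to 21070 TPM in MZ, 16750 to 26258 TPM in DL and 21238 to 31285 TPM in RL. Every PG muscle was below every DL and RL muscle in this sum, and MZ overlapped PG and DL. No marker of the 4 was at 0 throughout a group. The sum rested largely on myl1, at 4163 to 26726 TPM across muscles. The others were lower, with actn3 at 1247 to 2870 TPM, neb at 842 to 1973 TPM and cacna1s at 216 to 465 TPM. The lowest sum was that of PG fish 3, the muscle with the most igf2. Fibroblast markers (6 of 12 listed, among them col1a1 and pdgfra) summed to 83.1 to 231 TPM in PG, 81.6 to 142 TPM in MZ, 118 to 379 TPM in DL and 353 to 485 TPM in RL, and leukocyte markers to 133 to 373 TPM in PG, 207 to 252 TPM in MZ, 86.2 to 212 TPM in DL and 48.1 to 59.0 TPM in RL. Endothelial markers (5 of 10 listed) summed to 38.9 to 43.96 TPM in PG, 19.5 to 26.97 TPM in MZ, 29.8 to 55.7 TPM in DL and 19.8 to 28.05 TPM in RL. Their part in the differences was not tested.

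**Figure D3:**
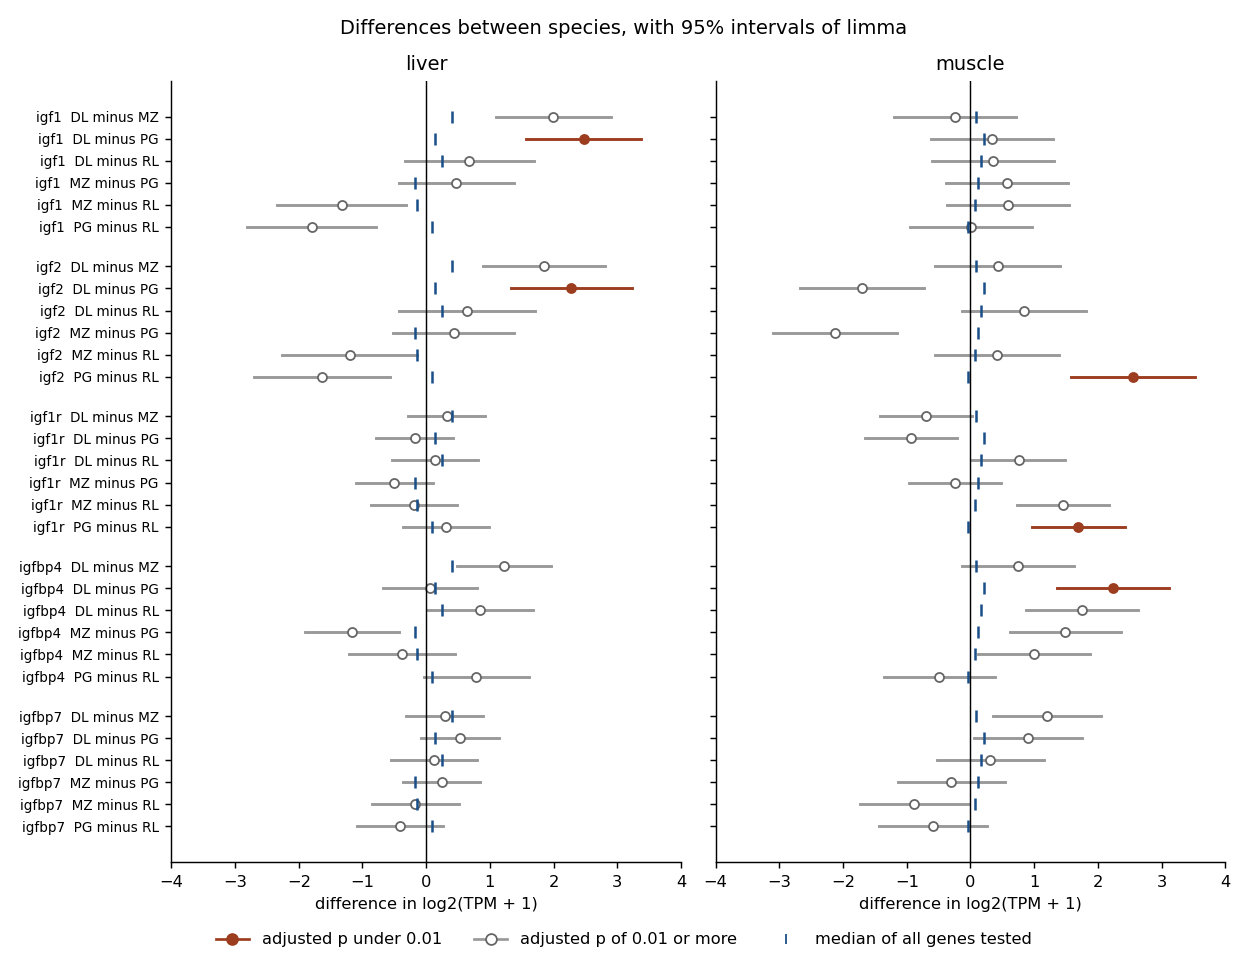
Difference in log2(TPM + 1) between each pair of species for the 5 members tested, with 95% intervals, in liver (left) and muscle (right). Filled points mark the calls at an adjusted p under 0.01 (igf1 and igf2 of DL against PG in liver, igf2 and igf1r of PG against RL and igfbp4 of DL against PG in muscle), and ticks mark the median of all genes tested.

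Between the tissues of the same species, igf1 was higher in liver and igf1r higher in muscle in each of the 4 species. The median gene of this comparison was -0.23 for liver minus muscle of DL, -0.46 for MZ and -0.22 for both PG and RL. igf1 was above muscle by 6.83 in DL (SE 0.42, adjusted p = 6.2e-11), 4.59 in MZ (SE 0.42, adjusted p = 2.57e-08), 4.69 in PG (SE 0.42, adjusted p = 2.07e-08) and 6.50 in RL (SE 0.47, adjusted p = 9.86e-10), and all 11 fish with both tissues showed it. Muscle igf1 was listed at 0 TPM in PG fish 3 and RL fish 2, and its highest value was 2.95 TPM in MZ fish 1, whose hepatocyte marker sum of 22.1 TPM was also the highest among muscles, and the part of it in this value was not tested. igf1r was below muscle in all 11 fish, by -2.17 in DL (SE 0.30, adjusted p = 6.8e-06), -3.19 in MZ (SE 0.30, adjusted p = 4.02e-08), -2.93 in PG (SE 0.30, adjusted p = 1.49e-07) and -1.55 in RL (SE 0.34, adjusted p = 0.00102). In RL this call was lost when only RL was fitted (adjusted p = 0.0206) and without liver replicate 2 (0.0103) or 3 (0.0113), where the 1 remaining RL liver is assumed to vary like the other groups.

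The other members differed between tissues in some species. In PG, igf2 was higher in muscle (-2.88, SE 0.45, adjusted p = 3.46e-05, muscle higher in 3 of 3 fish) and igfbp4 higher in liver (2.02, SE 0.37, adjusted p = 0.000169, 3 of 3 fish). In DL, igfbp7 was higher in muscle (-1.47, SE 0.34, adjusted p = 0.00141, 3 of 3 fish). Liver igf2 was above muscle in 3 of 3 DL fish (1.11, SE 0.45, adjusted p = 0.0550) and in 2 of 2 RL fish (1.31, SE 0.51, adjusted p = 0.0473). Neither passed without pairing, and both passed with the fish as a block (DL 1.11, adjusted p = 0.00773; RL 1.61, adjusted p = 0.00349). In all, 3 of 5 members were called in DL (34.7% of 20549 genes called), 2 in MZ (35.9%), 4 in PG (31.6%) and 2 in RL (30.4%).

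Whether a difference between species differed between tissues was tested as an interaction, here the difference in liver less that in muscle. For igf2, DL minus PG was 3.99 higher in liver than in muscle (SE 0.64, adjusted p = 0.000443), and PG minus RL was lower in liver by 4.18 (interaction -4.18, SE 0.68, adjusted p = 0.000572). In liver igf2 lay lower in every PG fish than in any DL or RL fish, and in muscle higher. Of these simple differences, DL against PG in liver and PG against RL in muscle passed the test, while PG minus RL in liver (-1.63, adjusted p = 0.0462) and DL minus PG in muscle (-1.71, adjusted p = 0.0175) did not. Both interactions, which share the PG libraries, passed in each setting tried. With the fish as a block the MZ minus PG interaction of igf2 also passed (2.56, adjusted p = 0.0296 without and 0.00948 with the block). For igfbp4 the MZ minus PG interaction was -2.66 (SE 0.52, adjusted p = 0.00665). It was at 0.01001 with the fish as a block, ranged from 0.00416 to 0.0561 over the settings tried with all libraries and from 0.00381 to 0.0204 with 1 library left out, and was lost without any 1 of the MZ or PG libraries except muscle replicate 1 of MZ and liver replicate 3 of PG, at 0.0112 to 0.0204. The DL minus PG interaction of igfbp4 was -2.18 (SE 0.52), with an adjusted p of 0.0103 without and 0.00976 with the block.

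Thus 2 of 5 members, igf2 and igfbp4, were called for an interaction in at least 1 pair, where 9.49% of genes were called. The background was 4.90% of genes for DL minus PG, 1.37% for MZ minus PG and 4.62% for PG minus RL. No member was called for DL minus MZ (3.16%), DL minus RL (0.623%) or MZ minus RL (2.99%).

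**Figure D4:**
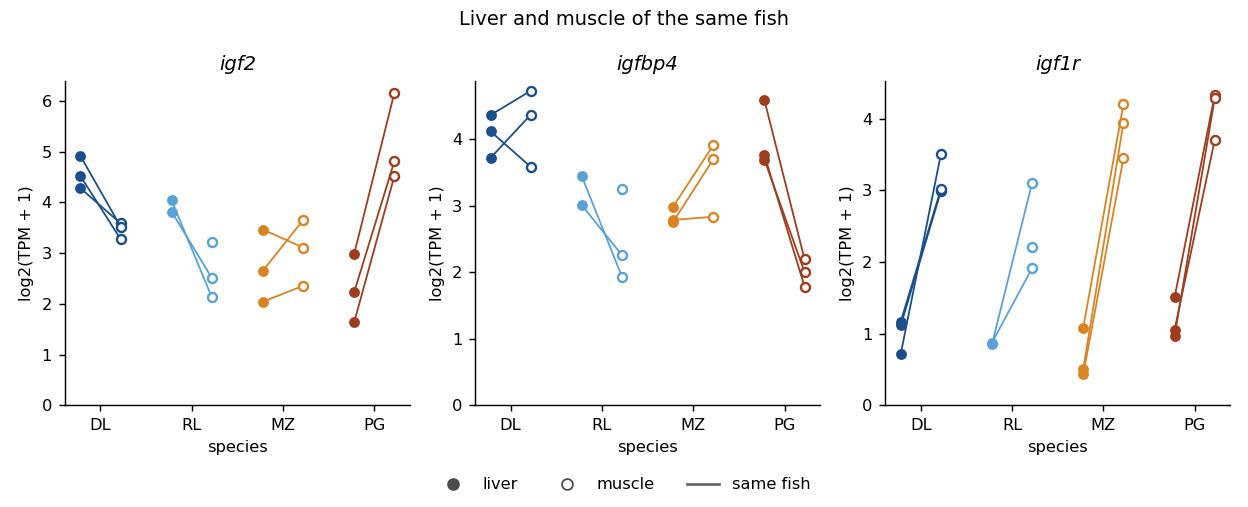
log2(TPM + 1) of igf2, igfbp4 and igf1r in liver (filled) and muscle (open), with a line joining the tissues of each of the 11 fish that have both. igf2 is lower in muscle in each DL and RL fish and higher in muscle in all 3 PG fish, igfbp4 is lower in muscle in all 3 PG fish, and igf1r is higher in muscle in every fish.

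Genes that act around the IGFs were taken from 6 lists (45 genes listed, 42 tested in each tissue). Most symbols tried were not listed. Those listed were 4 of 21 for growth hormone input, 5 of 15 carriers, proteases and inhibitors, and 7 of 22 receptors and adaptors. They were 15 of 45 for the PI3 kinase, AKT and mTOR pathway, 12 of 33 FOXO and fasting genes, and 2 of 5 proteins that bind IGF2 mRNA. Of the 42 tested, 6 were called between species in liver (14.3%) and 12 in muscle (28.6%), beside 11.8% and 17.7% of all genes. Of the carriers, proteases and inhibitors, 2 of 4 tested were called in liver and both were higher in DL than in PG: stc2, an inhibitor of the pappalysin proteases, at means of 3.56 and 0.314 TPM, and igfals. The latter, the carrier subunit, was at 162, 171 and 249 TPM in DL, 150 and 80.9 TPM in RL, 60.2, 45.02 and 54.8 TPM in MZ and 16.9, 22.1 and 39.0 TPM in PG (DL minus PG 2.91, SE 0.39, adjusted p = 0.000791). It had the same order of species as igf1, with r = 0.948 over 11 livers and 0.685 for deviations from species means. Among 4 tested in muscle, pappa2, a protease that cleaves IGF-binding proteins in mammals, was higher in DL (41.8 TPM) than in PG (7.67 TPM; 2.21, SE 0.30, adjusted p = 0.000599), and htra1, a secreted serine protease, was higher in MZ (11.1 TPM) than in RL (1.04 TPM; 2.52, SE 0.31, adjusted p = 0.000497). The protease pappa2 was also called as higher in DL than in MZ, and in RL than in MZ and in PG.

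On the growth hormone side, 1 of 3 genes tested was called in liver and 2 of 4 in muscle. Liver cish, a feedback inhibitor of cytokine and growth hormone signalling induced by STAT5, was highest in PG, at 137, 124 and 143 TPM against 19.7, 10.1 and 8.86 TPM in DL, 9.36, 15.4 and 49.995 TPM in MZ and 3.33 and 13.5 TPM in RL. It was called for PG minus RL (4.09, SE 0.68, adjusted p = 0.00389) and for DL minus PG (-3.37, SE 0.60, adjusted p = 0.00363). A relation of cish to igf1 was not tested. Muscle socs3, of the same family of inhibitors, was higher in MZ (87.9 TPM) than in RL (16.1 TPM; 2.50, SE 0.51, adjusted p = 0.00791), and the call was lost with quantile normalization (0.0144) and with the replicate number, which does not pair fish of different species, as a block (0.0143). The other gene called in muscle was prlr, the prolactin receptor, at a mean of 1.16 TPM in PG and listed at 0 TPM in RL.

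Below the receptor, the 7 receptors and adaptors tested were igf2r, irs2, shc1, grb14, gab1, grb2 and ptpn1. The insulin receptor insr and the docking protein irs1 were not among them. None of the 7 was called in liver and 3 of 7 were called in muscle. Muscle irs2, the docking protein of the insulin and IGF1 receptors, was at 68.9, 85.2 and 55.7 TPM in PG against 3.47, 2.93 and 10.7 TPM in RL (3.56, SE 0.44, adjusted p = 0.000252). The phosphatase ptpn1 (MZ minus RL 1.39, SE 0.26, adjusted p = 0.00456) and the adaptor grb2 (PG minus RL 1.36, SE 0.27, adjusted p = 0.00432) were the others, and the call of ptpn1 was lost with the replicate number as a block (0.0127). This block, also used for deptor below, does not pair fish of different species. Of 15 genes of the PI3 kinase, AKT and mTOR pathway, 2 were called in liver (pik3r2 and tsc2, both higher in DL than in MZ and PG, with means under 10 TPM) and 1 in muscle: deptor, an inhibitor of mTOR, was higher in MZ (43.4 TPM) than in PG (11.4 TPM; 1.90, SE 0.31, adjusted p = 0.00683; 0.0119 with the block).

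Of the FOXO factors and genes that respond to fasting, 1 of 12 was called in liver and 3 of 10 in muscle. Liver ddit4, a stress-induced inhibitor of mTOR, was lower in DL (22.5 TPM) than in MZ (378 TPM; -3.97, SE 0.66, adjusted p = 0.00361). In muscle, ddit4 was higher in PG (185 TPM) than in RL (6.15 TPM; 4.80, SE 0.50, adjusted p = 8.62e-05), as was txnip, which restrains glucose uptake (918 and 47.8 TPM; 4.28, SE 0.40, adjusted p = 4.41e-05). Muscle pdk4, which shifts fuel use from glucose to fat, was higher in DL (66.6 TPM) than in MZ (4.28 TPM; 3.55, SE 0.40, adjusted p = 0.000485). It was also called as higher in DL than in PG, and in RL than in MZ and in PG. Of the proteins that bind IGF2 mRNA, igf2bp2 was called in muscle, higher in PG (11.2 TPM) than in RL (1.75 TPM; 2.12, SE 0.35, adjusted p = 0.00135), and none was called in liver. The median difference of a list for DL minus PG in liver ran from -0.83 (receptors and adaptors) to 1.002 (1 gene that binds IGF2 mRNA), beside 0.14 for all genes.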

How the data were processed

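RNA-seq of 11 livers and 12 muscles was used. The authors trimmed reads with Trim Galore, assigned them with kallisto to the M. zebra UMD2a transcriptome whatever the species of the fish, and deposited TPM per gene and library, transcripts summed to genes by a tool not given in the sources used here. A level in DL, RL or PG therefore also depends on how well reads of that species match M. zebra, which was not tested. The authors' 8 columns of means per species, the lists of methylated regions and the other samples of the series were not used. Columns were tied to fish through the library numbers of the study's sample sheet, and 1 RL muscle by elimination.

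Fits of log2(TPM + 1) were made with limma 3.58.1 (R 4.3.3), its variance trend switched on, for genes with at least 1 TPM in 2 or more libraries, and Benjamini-Hochberg adjustment within each contrast (16613 genes in liver, 18101 in muscle, 20549 over both). All species of a tissue entered 1 fit, and all 23 libraries entered the fit of tissues and interactions. Figures used Python 3.11.15 with pandas 2.3.3, numpy 2.4.6 and matplotlib 3.10.9. Simulated data were used to check only DL minus PG in each tissue and liver minus muscle of DL. The shift put in was larger than any called difference of a member between species. Interactions and blocks were not simulated.

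Each member was described in every group. Fold changes are given for each member called, for up to 3 uncalled pairs per tissue with the largest change among those with replicates apart and a higher mean of at least 10 TPM, and for others where a sentence needs them, which were chosen after their values were seen. Pathway genes given a fold change between species were called and had a mean of at least 10 TPM in the higher species, at most 3 per list and tissue. Each is given for its pair with the largest change, and cish for DL minus PG as well. Several were also called in pairs not given. The called genes stc2, prlr, pik3r2 and tsc2, with lower means, are named without one. Pathway genes were refitted only with quantile normalization and with a block. The members and lists were chosen with earlier results of these data known.

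Liver and muscle of a fish come from the same animal. Deviations from group means correlated at 0.0920 to 0.160 between tissues of the same fish (median 0.124, above 0.1 in 10 of 11) and at -0.131 to 0.0331 in 22 pairs of different fish. Deviations from a mean of 2 or 3 libraries sum to 0. Positive values for the same fish therefore push those for different fish below 0, and the 2 ranges are not independent. The p-values rest on the spread between the 2 or 3 wild fish of a group. This spread was pooled over all groups of a fit and drawn by limma towards its trend over genes. Alternatives were other pseudocounts, filters, scaling, samples in the fit, a minimum difference of 50 TPM, each library left out, and a block.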

Additional observations from a re-analysis of the deposited data

Results flagged for a closer look

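The difference between DL and PG in igf2 was not the same in the 2 tissues: in liver less in muscle it came to 3.99 on the log2(TPM + 1) scale (limma, adjusted p = 0.000443), with liver igf2 above muscle in 3 of 3 DL fish and below it in 3 of 3 PG fish. The same held for PG and RL, a comparison that shares the PG libraries, at -4.18 (adjusted p = 0.000572), with liver above muscle in 2 of 2 RL fish. Without PG muscle replicate 3, which had 70.7 TPM, these interactions stayed past the threshold.

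For igfbp4 the difference between MZ and PG differed between tissues by -2.66 (limma, adjusted p = 0.00665), with liver below muscle in 3 of 3 MZ fish and above it in 3 of 3 PG fish. This call was lost in 4 of 7 other settings.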

How the results depend on the processing

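The 19 calls of members and 6 uncalled differences chosen by the rule above were refitted in each setting, and no direction among them reversed. Other differences given in the report were refitted only with quantile normalization and with a block. Of 19 named calls, 12 passed in every refit, which leaves out the minimum difference of 50 TPM, tried only for the counts below: igf1 between tissues in each species, igf1r between tissues in DL, MZ and PG, igf2 and igfbp4 between tissues of PG, igfbp7 between tissues of DL, and both igf2 interactions. Members called between species in liver, 2 at first, came to 1 with no filter on low values and 1 with a minimum difference of 50 TPM, and to 0 to 2 with 1 library left out. In muscle 3 became 0 at 50 TPM and 1 to 3 with 1 library left out. Only igf1 had group means above 50 TPM, in livers of DL, RL and MZ (197, 120 and 50.5 TPM). No other member could thus pass the 50 TPM minimum in any comparison. The 0 in muscle was fixed by these levels, as was that between tissues of PG. Between tissues, the counts at 50 TPM were 1 in DL and RL and 0 in MZ and PG, against 3 in DL, 2 in RL, 2 in MZ and 4 in PG. In RL 1 remained when only RL was fitted, and 1 to 3 were called with 1 library left out. For the interaction, 2 became 1 with a pseudocount of 0.1, 1 with quantile normalization and 1 when only the groups compared were fitted, with 1 to 3 when a library was left out.

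With a replicate block, 2 members were called between species in liver, 3 in muscle, 4 between tissues of DL, 2 of MZ, 4 of PG and 3 of RL, and 2 for the interaction. Over all genes, the block gave 1783 calls of 16613 in liver and 2376 of 18101 in muscle. Of 20549 genes, it called 6997 between tissues of DL, 7169 of MZ, 6284 of PG and 5772 of RL, and 1162 for the interaction. Replicate numbers pair only tissues of the same fish, not fish of different species. The block changed no other call of a member than those given in the report.

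Counts over all genes moved by more than 1.5 times as follows. In liver, 1965 genes called in any pair became 1233 with no filter, 1261 among genes averaging at least 5 TPM, 3076 with quantile normalization, and 1171 without DL replicate 3, 1139 without PG replicate 1 and 1035 without PG replicate 2. In muscle, 3212 became 2061 when only the groups compared were fitted and 2067 without PG replicate 3. Among genes averaging at least 5 TPM, the tissue counts were 4009 for DL, 4393 for MZ, 3876 for PG and 3941 for RL, against 7129, 7384, 6486 and 6240. This filter also changed which genes were tested. The 1951 genes called for an interaction became 1157 with a pseudocount of 0.1, 1226 among genes of at least 5 TPM and 1162 with the replicate block. The cause of these changes was not tested. With 2 or 3 fish a group and no read counts, the precision of values near 1 TPM, such as those of liver igf1r and muscle igf1, is unknown.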

Other observations

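The counts of genes around the IGFs called between liver and muscle are given here beside the share of all genes called, 35.9% for MZ, 34.7% for DL, 31.6% for PG and 30.4% for RL. No enrichment was tested, and several counts are near or below that share. Of 5 carriers, proteases and inhibitors tested, 4 were called in MZ, 3 each in DL and PG and 2 in RL (limma, adjusted p under 0.01). In each species igfals was higher in liver and pappa2 higher in muscle. Of 7 receptors and adaptors, 5 were called in MZ and 2 in each other species, with igf2r, the receptor that clears IGF2 in mammals, and the adaptor shc1 called in each species. Of 15 genes of the PI3 kinase, AKT and mTOR pathway, 7 were called each in DL, MZ and PG and 5 in RL, of which 6, 7, 6 and 5 were higher in muscle. Of 12 FOXO factors and fasting-responsive genes, 8 were called each in DL and MZ, 9 in PG and 5 in RL, of which 4, 5, 5 and 4 were higher in liver. The genes named here were chosen after their values were seen.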
